A study of Arabidopsis thaliana with 21 samples.

Results

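Whole roots of Arabidopsis thaliana fixed at the end of parabola 3 of a parabolic flight were compared with whole roots from tube A, fixed midway through parabola 1. The comparison takes 6 of the 21 arrays of the study by their labels, 3 per group, and covers all 16722 probe sets that the platform annotation pairs with exactly 1 gene, of 38408 probe sets on the array. Seedlings were wild type of the WS ecotype, 12 days old, grown at 19 °C under 24 h light, with no transgene named in the labels. They were flown on a C-9 aircraft, whose parabolas alternate increased gravity with near weightlessness, inside Kennedy Space Center Fixation Tubes, closed vessels from which the crew releases the preservative RNAlater over the plants. The midpoint of parabola 1 is the passage from increased gravity to microgravity, and the plants in tube A had at that moment completed 0 parabolas. The plants of the later tube had completed 3 parabolas. The remaining groups, with 3 arrays each, were level flight before the parabolas, parabola 1 start, midpoint tube B, parabola 1 end and parabola 10 end. Midpoint tube B was fixed at the same moment as tube A but operated by another crew member.

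Roots sense touch, bending and gravity through calcium signals in the cytosol. Calmodulin-like proteins bind the calcium, and transcripts of many such proteins, of zinc finger and WRKY transcription factors and of U-box ubiquitin ligases are known to rise within minutes of a mechanical, wounding or pathogen stimulus. Because those transcripts are made and degraded quickly, they are often among the first to differ between samples fixed minutes apart.

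Each group's 3 replicates came from 1 tube. The p-values cover only how much pools of roots within that tube varied, and parabola number, time in flight and tube cannot be told apart in this comparison. The words rose and fell stand for differences between these tubes that passed the test, and no root was measured at both times. All values are on the log2 scale of the authors' RMA, a normalization that gives arrays almost equal distributions and so hides any shift common to all transcripts. Fewer cells of a type and less RNA per cell cannot be told apart in whole roots. Few root cell type markers lay on named probe sets, and the label could be checked in part only. The expansin EXPA7, a root hair gene, had a mean of 3.83 at parabola 3 end and 3.85 in tube A, and FACT, a suberin gene of the endodermis, had means of 8.02 and 7.86. EXPA18, the other root hair gene measured, was 0.62 higher at parabola 3 end (limma adjusted p = 0.0483). The 1 stele marker measured was lower without overlap of the arrays (difference -0.22) but not called. The 1 root cap and tip marker also differed by -0.22 and was not called. Equal cell type composition of the 2 groups was thus not shown. Over all 21 arrays, the first principal component (15.6% of the variance) set tube A, at scores of 18.2, 23.5 and 11.3, apart from parabola 3 end, at -6.8, -12.5 and -5.5, while tube B lay at 3, -8.6 and 1.7.

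At parabola 3 end, 599 probe sets differed from tube A at a limma adjusted p below 0.05, which is 3.58% of those tested. Of these, 374 were higher (2.24%) and 225 lower (1.35%) at parabola 3 end. Those shares are the background for the counts of called list members below. At least 2-fold differences were seen for 62 higher and 19 lower probe sets. An unadjusted limma p below 0.05 was found for 2536 of the 16722 tested probe sets, the background for the unadjusted counts of lists below. The median difference of all tested probe sets was 0.004 on the log2 scale, that of the called rises 0.67 and that of the called falls -0.65. For 582 of the 599, no array of one group reached into the range of the other, as for 19.1% of all tested probe sets. The calls were made on the same arrays, so this separation follows largely from the selection and adds no support to them. The calls stood for 588 genes, of which 94 have a name other than their locus code, and 34 called probe sets had both means below 2.97, the median of the tested probe sets, and were not shown to lie above background. The count fell to 157 when only the 6 arrays entered the fit, to 243 without tube A array 2 and to 272 without parabola 3 end array 2. With tube A and tube B averaged as the midpoint it was 189, and with an assumed correlation between the arrays of a tube it was 44. Of 82 called genes looked at singly, 19 kept their call under that correlation. The named rises among them were APS3, WRKY22, STZ, PUB23, Fes1A, OPCL1 and SRC2, and the one fall with a name was ATMAP65-6. Loci without a name were AT4G29780, AT1G59860, AT1G17147, AT1G23710, AT5G35580, AT1G14200, AT4G01390, AT5G62360, AT1G64370, AT5G10970 and AT1G28100. The rest of the 82 lost their call there.

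**Figure D1:**
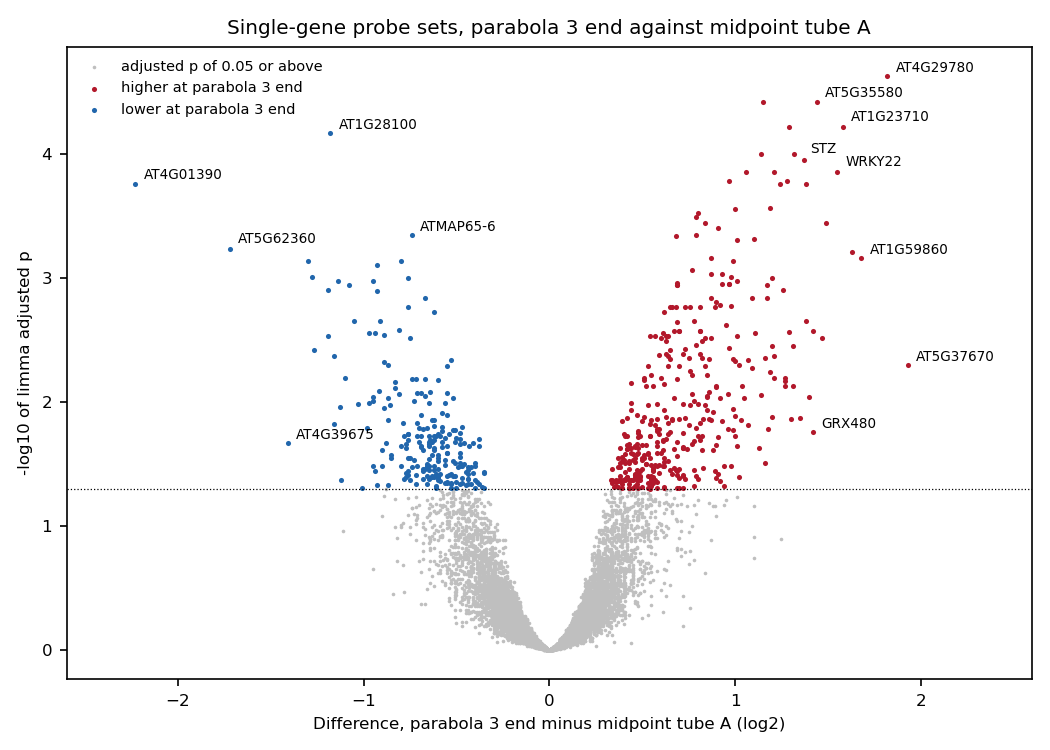
Difference between parabola 3 end and midpoint tube A (log2, horizontal) against the negative log10 of the limma adjusted p (vertical, so that 0.05 is the dotted line) for the 16722 single-gene probe sets. Red points are the 374 higher and blue points the 225 lower probe sets; the largest rise is AT5G37670 (1.93) and the largest fall AT4G01390 (-2.23).

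The largest rise was that of AT5G37670, a locus without a name in the annotation used. Its log2 values were 4.23, 5.87 and 4.40 at parabola 3 end and 2.95, 2.07 and 3.70 in tube A. Every parabola 3 end array was above every tube A array, with array 2 far above the other two in the later tube. The difference was 1.93 (SE 0.37, 3.81-fold, limma adjusted p = 0.00505), and the adjusted p was 0.10 with only the 6 arrays and 0.13 with the tube correlation. AT4G29780, also unnamed, gave the smallest adjusted p, with 7.21, 7.49 and 7.09 at parabola 3 end against 5.00, 5.63 and 5.70 in tube A. The groups lay well apart, and the difference of 1.82 (SE 0.18, 3.53-fold) had an adjusted p of 2.34e-05. With the tube correlation its adjusted p was 0.00387.

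Other loci known by their code alone completed the group of the 12 largest rises with APS3, WRKY22 and GRX480. AT1G59860 differed by 1.68 (SE 0.25, adjusted p = 6.93e-04), AT1G17147 by 1.63 (SE 0.24, adjusted p = 6.20e-04) and AT1G23710 by 1.58 (SE 0.18, adjusted p = 6.05e-05). AT1G07135 (1.47), AT5G35580 (1.44) and AT1G75000 (1.42) followed, with AT1G76640 (1.40), which RefSeq lists under the synonym CML39. APS3, an ATP sulfurylase of sulfate assimilation, read 5.85, 6.13 and 5.86 at parabola 3 end and 4.28, 4.52 and 4.54 in tube A. Its 2 groups were each tight and far apart, with a difference of 1.49 (SE 0.21, 2.82-fold, adjusted p = 3.59e-04).

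The touch list held 26 names, of which 5 were matched to a probe set of exactly 1 gene and are called measured here. Of these 5 touch genes, 4 rose and 0 fell, and the list's median difference was 1.11 against 0.004 for all probe sets. The same 4 were higher without overlap of the arrays, as were 10.1% of all tested probe sets. That adds no support to the calls, which came from the same arrays. Against tube B, 0 of the 5 passed in limma and the median was 0.51. With the tube correlation STZ alone kept its call, and the adjusted p was 0.0909 for CML38, 0.188 for CML39 and 0.419 for CML37. STZ, a C2H2 zinc finger repressor induced by many stresses, had values of 8.28, 8.63 and 8.03 at parabola 3 end and 6.72, 6.77 and 7.35 in tube A. The ranges did not meet, and the gene was 1.37 higher (SE 0.17, 2.58-fold, adjusted p = 1.11e-04). The calmodulin-like gene CML38 had values of 4.16, 5.00 and 4.38 against 3.21, 3.38 and 3.64. Its difference was 1.11 (SE 0.20, 2.16-fold, adjusted p = 0.00276), again without overlap. CML39 read 5.96, 6.61 and 6.24 at parabola 3 end and 4.73, 5.24 and 4.64 in tube A, a difference of 1.40 (SE 0.29, adjusted p = 0.00915). Without parabola 3 end array 2, the highest of the 3, its difference was 1.23 and its adjusted p 0.0598. CML37, whose means of 2.97 and 2.45 lie at or below the median probe set, differed by 0.53 (adjusted p = 0.0449). That call ended without any of 5 of the 6 arrays, with an adjusted p of up to 0.212 at a difference of 0.41. The remaining list member, the brassinosteroid-responsive gene EXO, had a difference of -0.34 (adjusted p = 0.352).

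Among all 7 measured calmodulin-like calcium sensors, 3 rose and 0 fell, with a median of 0.37, and the 3 are the touch genes CML37, CML38 and CML39. CML42 was at 4.54 and 4.17 (difference 0.37, adjusted p = 0.370), CML23 differed by 0.32 (adjusted p = 0.364), CML41 by -0.03 (adjusted p = 0.952) and CML43 by -0.29 (adjusted p = 0.479). By limma, 0 of 18 calcium and ion transport genes were called and 2 had an unadjusted p below 0.05, with differences from -0.51 to 0.63. An unadjusted p that low was reached by 2536 of all 16722 tested probe sets. The touch genes were also measured in the other tubes. The mean of the 5 touch genes was 5.09, 5.46 and 5.02 in the parabola 3 end arrays and 4.25, 4.42 and 4.46 in those of tube A. It was 4.65, 5.23 and 4.57 in tube B, whose mean of 4.81 lay between the others while its array 2 was above parabola 3 end arrays 1 and 3, and 5.04 ± 0.07 (SD, n = 3) in level flight, close to parabola 3 end. Parabola 1 start, at 4.33 ± 0.05, was near tube A.

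**Figure D2:**
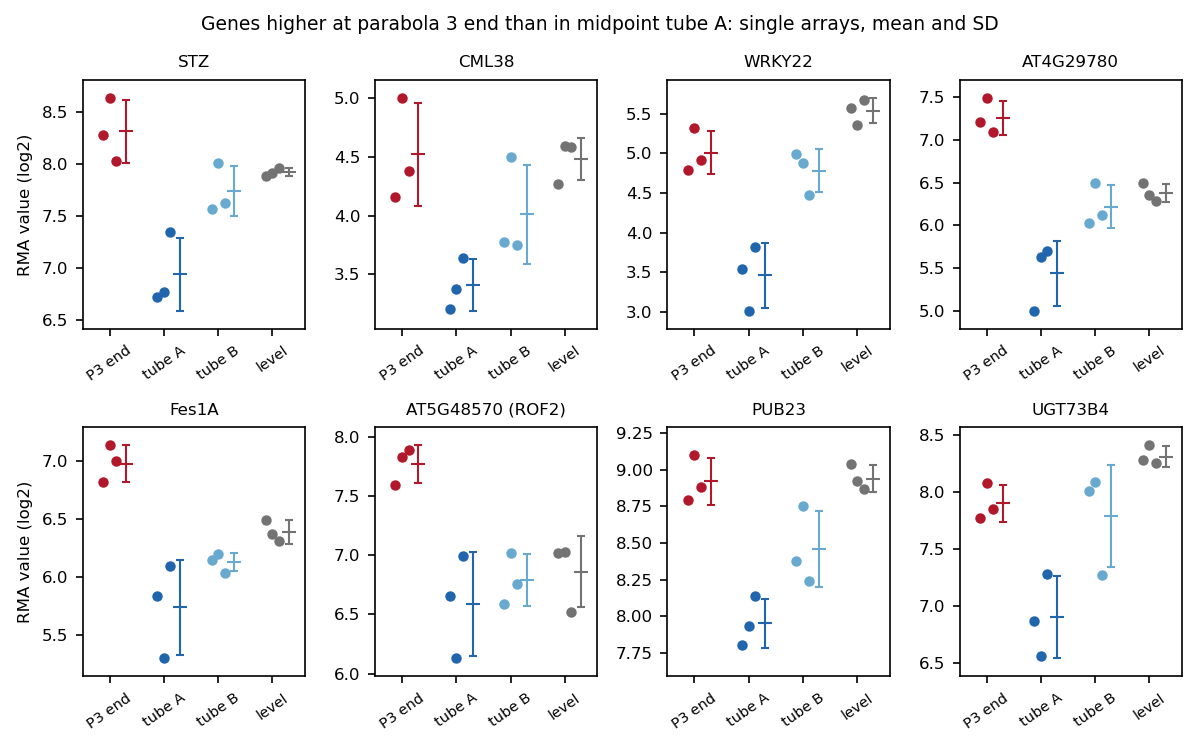
RMA values (log2, vertical) of 8 genes that were higher at parabola 3 end than in tube A, with 1 point per array and the mean and SD (n = 3) beside each group, for parabola 3 end (P3 end), midpoint tubes A and B and level flight; each panel has its own scale. In every panel the tube A points lie below all parabola 3 end points, and for WRKY22 and UGT73B4 the level flight points lie higher still.

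Of 7 measured WRKY transcription factors, WRKY22 and WRKY6 rose. WRKY22, which acts downstream of immune receptors that recognise bacterial flagellin, had values of 4.79, 5.32 and 4.92 at parabola 3 end and 3.54, 3.01 and 3.82 in tube A. Tube A array 2 was the lowest, and the groups did not overlap. The gene was 1.55 higher (SE 0.19, 2.93-fold, adjusted p = 1.40e-04). WRKY6, a factor of senescence and phosphate response, had means of 9.30 and 8.74, a difference of 0.57 (SE 0.10, adjusted p = 0.00295). Its adjusted p was 0.0939 with the tube correlation and 0.108 with both midpoint tubes averaged, while WRKY22 had 0.0127 and 0.0102. The other 5 WRKY genes were not called, among them WRKY29 (0.14) and WRKY42 (-0.31).

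GRX480, a glutaredoxin partner of TGA factors, read 5.93, 6.68 and 5.89 at parabola 3 end but 4.36, 4.27 and 5.61 in tube A. Tube A array 3 came close to the parabola 3 end range. The difference of 1.42 (SE 0.33, 2.68-fold) had an adjusted p of 0.0175, which was 0.106 at a difference of 1.16 without parabola 3 end array 2. The call also ended without tube A array 1 or 2. BZIP60, a factor of the unfolded protein response, had values of 5.47, 5.70 and 5.58 against 4.76, 4.28 and 5.17 and was 0.85 higher (SE 0.17, adjusted p = 0.00604). It was the 1 called gene of 9 measured bZIP genes of the list, and its adjusted p was 0.147 with the tube correlation, against 0.27 for GRX480. DREB2C, a heat-responsive AP2-type factor, was 0.69 higher (adjusted p = 0.0494), a call that ended without any of 4 arrays (adjusted p up to 0.251 at a difference of 0.50). The locus AT3G53600 had 4.01, 4.27 and 4.10 against 3.70, 2.57 and 4.18, so the groups overlapped (difference 0.65, adjusted p = 0.297).

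U-box ubiquitin ligases of the PUB22 to PUB24 triplet, which dampen pattern-triggered immunity, rose together: 3 of 10 measured PUB genes were higher and 0 lower, with a median of 0.22. Of all tested probe sets, 2.24% were called higher. PUB23 had values of 8.79, 9.10 and 8.88 at parabola 3 end and 7.80, 7.93 and 8.14 in tube A, without overlap and with little spread. It was 0.97 higher (SE 0.12, 1.96-fold, adjusted p = 1.64e-04). PUB24 read 7.09, 7.41 and 7.15 against 6.23, 6.04 and 6.96, and PUB22 read 6.87, 7.26 and 6.76 against 6.40, 6.04 and 6.53. In both, the highest tube A array was array 3 and fell just short of the parabola 3 end range. Their differences were 0.81 (adjusted p = 0.0202) and 0.64 (adjusted p = 0.0181). Without tube A array 2, PUB24 had an adjusted p of 0.125 at a difference of 0.63, and without parabola 3 end array 2, PUB22 had 0.117 at 0.49. The PUB24 call also ended without parabola 3 end array 2 or tube A array 1, and the PUB22 call without tube A array 2. The other 7 PUB genes had differences from -0.06 to 0.29. Averaging both midpoint tubes left PUB23 with an adjusted p of 0.00122, PUB24 with 0.256 and PUB22 with 0.484, and 0 of the 10 passed against tube B in limma.

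Co-chaperones, the helper proteins of Hsp70 and Hsp90, formed a further group of higher transcripts. It was put together after the values had been seen, so the number of its members describes the choice. Fes1A, which binds cytosolic Hsp70 in heat-stressed cells, had values of 6.82, 7.14 and 7.0 at parabola 3 end and 5.84, 5.30 and 6.10 in tube A. The groups were separate and the gene was 1.24 higher (SE 0.16, 2.36-fold, adjusted p = 1.73e-04). AT5G48570, listed under the synonym ROF2, is a heat-induced immunophilin. It read 7.59, 7.83 and 7.89 against 6.66, 6.13 and 6.99 and was 1.17 higher (SE 0.19, 2.26-fold, adjusted p = 0.00114). The Hsp70 to Hsp90 organising proteins Hop2 and Hop3 were 0.64 (SE 0.12, adjusted p = 0.00507) and 0.62 higher (SE 0.16, adjusted p = 0.0324). The Hop3 call ended without any of 5 arrays, with an adjusted p of up to 0.133 at a difference of 0.56. SGT1A, an Hsp90 partner in immune receptor stability, was 0.70 higher (SE 0.14, adjusted p = 0.00507). In the list of heat shock and chaperone genes, ROF2 was the 1 called gene of 5. That list was matched by symbols and synonyms, so heat shock genes known by their locus code alone are missing from it. The 5 therefore do not stand for all heat shock genes. The others were ATJ1 (0.05), HSP93-III (0.29), ATHSP22.0 (-0.07) and CLPB2 (-0.08).

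Enzymes that attach sugars to small molecules followed. Of 55 UDP-glycosyltransferases measured, 5 rose and 0 fell, where 2.24% of all tested probe sets rose and 1.35% fell. The median of the list was 0.05. All 5 lost their call with the tube correlation (adjusted p from 0.0668 to 0.438) and with both midpoint tubes averaged (0.0575 to 0.794). UGT73B4 had values of 7.77, 8.08 and 7.85 at parabola 3 end and 6.87, 6.56 and 7.28 in tube A. The groups did not overlap and differed by 1.00 (SE 0.19, 2-fold, adjusted p = 0.00467). Its neighbours in the family, UGT73B5 and UGT73B2, were 0.99 (SE 0.22, adjusted p = 0.0167) and 0.89 higher (SE 0.15, adjusted p = 0.0017). UGT87A2, known from flowering time control, was 0.64 higher (SE 0.12, adjusted p = 0.00425), and GT72B1, which conjugates phenolic compounds, 0.58 (adjusted p = 0.0491). GT72B1 lost its call without any 1 of the 6 arrays (adjusted p up to 0.237 at a difference of 0.44). UGT73B5 lost it without parabola 3 end array 2 (adjusted p = 0.0987 at 0.84) and without tube A array 2. Whether probes of the close UGT73B family members share target sequence was not checked.

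Other enzymes and transporters were higher at parabola 3 end as well. OPCL1, a CoA ligase of jasmonate synthesis, had values of 7.10, 7.45 and 7.13 against 5.98, 6.01 and 6.11 and was 1.19 higher (SE 0.16, 2.28-fold, adjusted p = 2.74e-04). Both groups were narrow and lay well apart. CYP71B6 was the 1 gene called among 25 cytochrome P450 genes (0.69, SE 0.11, adjusted p = 0.00114). ALDH2C4, an aldehyde dehydrogenase that makes ferulate and sinapate, was 0.55 higher (SE 0.11, adjusted p = 0.00601), and alanine aminotransferase AlaAT1, known from low-oxygen roots, 0.56 higher (SE 0.11, adjusted p = 0.00746). The AlaAT1 call ended without parabola 3 end array 2 (adjusted p = 0.0511 at 0.50). AlaAT1 and CML38 were the 2 called members of 5 measured hypoxia genes. PDC2, a pyruvate decarboxylase of fermentation, had a difference of 0.20 (adjusted p = 0.542). SRC2, a C2 domain protein, read 6.19, 6.68 and 6.19 against 4.84, 5.23 and 5.34 and was 1.21 higher (SE 0.15, 2.31-fold, adjusted p = 1.40e-04). AT5G52050, listed as DTX50, an abscisic acid efflux carrier, read 7.82, 7.60 and 7.20 against 6.12, 6.25 and 6.62, a difference of 1.21 (SE 0.23, adjusted p = 0.00425).

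The largest fall was that of AT4G01390, an unnamed locus. Its values were 3.19, 2.46 and 2.55 at parabola 3 end and 4.43, 5.09 and 5.36 in tube A. The gap between the groups was more than 1 log2 unit, and the gene was lower by a difference of -2.23 (SE 0.29, 4.68-fold, adjusted p = 1.73e-04). AT5G62360 had 2.93, 3.47 and 3.03 against 5.00, 4.72 and 4.87. The groups again lay more than 1 unit apart, at a difference of -1.72 (SE 0.25, 3.29-fold, adjusted p = 5.82e-04). AT4G39675 read 2.69, 3.27 and 2.55 against 4.44, 4.75 and 3.55. Tube A array 3 was close to the later tube, and the difference of -1.41 (adjusted p = 0.0212) lost its call without any of 4 arrays (adjusted p up to 0.119 at -1.15).

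The rest of the 12 largest falls had differences between -1.30 and -1.14, and none has a name in the annotation used. They were AT1G64370 (-1.30), AT5G10970 (-1.28), AT3G52900 (-1.27), AT3G62160 and AT3G27027 (both -1.19), AT1G28100 (-1.18), AT1G45015 and AT3G14395 (both -1.16) and AT1G65346 (-1.14). The AT3G14395 call ended without parabola 3 end array 1 (adjusted p = 0.0934 at -0.85) and without tube A array 1 or 2. AT1G28100 had the smallest adjusted p of all falls named here, 6.78e-05, with values of 5.13, 5.38 and 5.14 at parabola 3 end and 6.41, 6.62 and 6.16 in tube A. The locus AT5G48430 also fell, by a difference of -1.05 (SE 0.18, 2.07-fold, adjusted p = 0.00222), from 5.36, 5.19 and 5.14 in tube A to 4.35, 4.39 and 3.81.

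**Figure D3:**
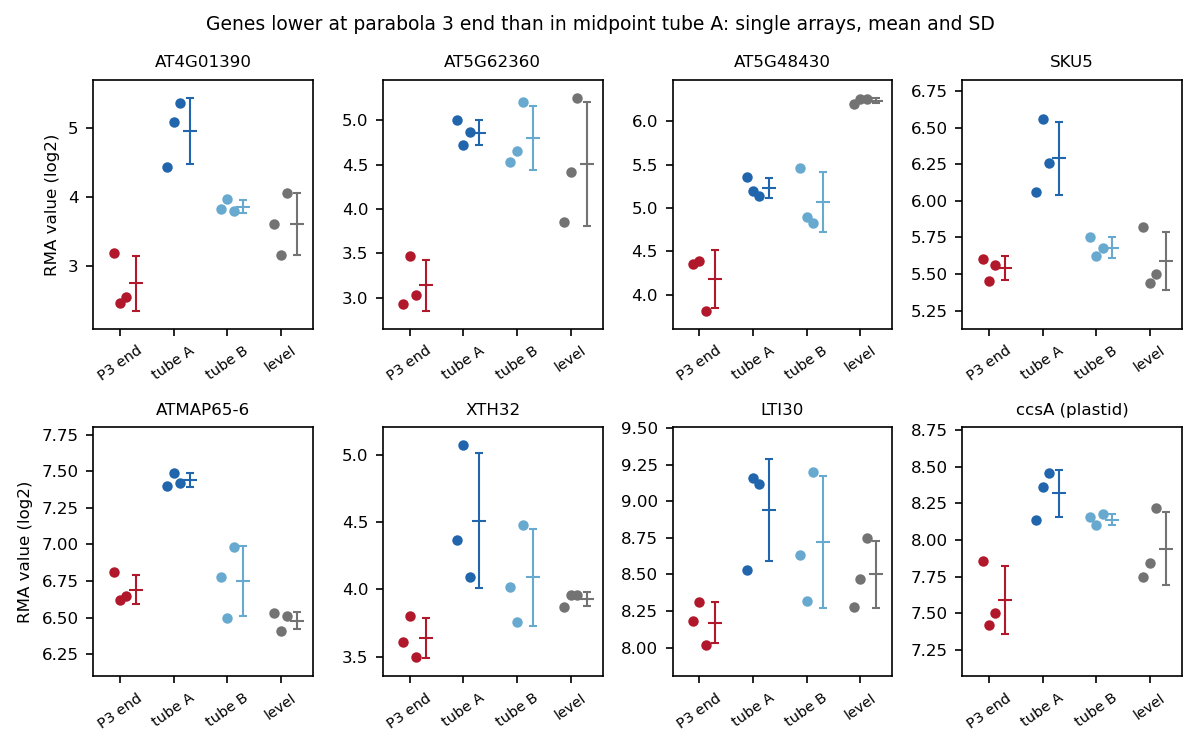
RMA values (log2, vertical) of 8 genes that were lower at parabola 3 end than in tube A, with 1 point per array and the mean and SD (n = 3) beside each group, for parabola 3 end (P3 end), midpoint tubes A and B and level flight; each panel has its own scale. The parabola 3 end points lie below all tube A points in every panel. In the AT5G62360 and AT5G48430 panels they also lie below all points of tube B and level flight, whereas in the SKU5 and ATMAP65-6 panels tube A stands apart among the groups drawn. Parabola 1 start, not drawn, had means of 6.13 for SKU5 and 7.21 for ATMAP65-6, beside 6.29 and 7.44 in tube A.

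Among 6 cytoskeleton and root growth genes chosen after their values had been seen, 5 fell and 1 rose. All were picked from called genes, so these numbers describe the choice and give no direction for such genes. SKU5, a glycosylphosphatidylinositol-anchored protein that affects the direction of root growth, had values of 5.60, 5.45 and 5.56 at parabola 3 end and 6.06, 6.56 and 6.26 in tube A. It was 1.69-fold lower (difference -0.76, SE 0.13, adjusted p = 0.00172), with no overlap. ATMAP65-6, a microtubule-associated protein, read 6.81, 6.62 and 6.65 against 7.40, 7.49 and 7.42. Both groups were tight, and the difference was -0.74 (SE 0.11, adjusted p = 4.49e-04). The microtubule protein SP1L2 had a difference of -0.89 (SE 0.17, adjusted p = 0.00472), with means of 2.20 and 3.10 near the median probe set. KINESIN-13A, a motor protein, had a difference of -0.36 (adjusted p = 0.048, up to 0.193 at -0.29 without 1 of 5 arrays). COB, which orients cellulose deposition in root cells, had a difference of -0.38 (adjusted p = 0.0199, up to 0.109 at -0.32 without 1 of 4 arrays). The beta-tubulin TUB1 went the other way, at 5.28, 5.06 and 5.34 against 4.41, 4.13 and 4.53 in tube A, and was 0.87 higher (SE 0.14, adjusted p = 0.00145).

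Of 34 expansin and xyloglucan endotransglucosylase genes that loosen walls, 1 rose and 1 fell, at a median of -0.04. XTH32 had values of 3.61, 3.80 and 3.50 at parabola 3 end and 4.37, 5.07 and 4.09 in tube A. Its difference of -0.87 (SE 0.18, adjusted p = 0.00928) became -0.59 (adjusted p = 0.0597) without tube A array 2, the highest. The root hair expansin EXPA18 was 0.62 higher (adjusted p = 0.0483) and lost its call without any 1 of the 6 arrays (adjusted p up to 0.163 at 0.58). EXPA9 missed the threshold with a difference of 0.65 (adjusted p = 0.0508), as did EXPA4 with -0.63 (adjusted p = 0.0683). Among all tested probe sets 1.35% fell, and of 24 TBL genes, which acetylate wall polymers, TBL28 (-0.65, adjusted p = 0.0225) and TBL33 (-0.62, adjusted p = 0.0244) did. The list's median was -0.14. Each of these calls ended without 1 of 4 arrays, at an adjusted p of up to 0.125 (-0.54) for TBL28 and 0.118 (-0.55) for TBL33. ATPMEPCRB, a pectin methylesterase, was the 1 called gene of 4 pectin enzymes (-0.59, adjusted p = 0.0431), with means of 1.88 and 2.47 that were not shown to lie above background. Its call ended without 1 of 5 arrays, at up to 0.221 with a difference of -0.45. By limma, 0 of 12 cellulose and arabinogalactan genes were called and 1 had an unadjusted p below 0.05.

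Hormone and peptide genes were looked at as lists and singly. In the auxin list, 2 of 20 genes rose and 0 fell, at a median of 0.03, where 2.24% of all tested probe sets rose and 1.35% fell. LBD16, which starts lateral roots, read 5.97, 6.26 and 6.44 against 5.72, 5.15 and 5.77 (difference 0.67, adjusted p = 0.0238, and 0.152 at 0.47 without tube A array 2). GH3.1, of the family that conjugates auxin to amino acids, was 0.56 higher (adjusted p = 0.0404, and 0.215 at 0.39 without parabola 3 end array 1). The LBD16 call ended without 1 of 3 arrays and that of GH3.1 without 1 of 4. GH3.3 had a difference of 0.30 (adjusted p = 0.589). BAT1, an acyltransferase that inactivates brassinosteroids, had a difference of -0.67 (SE 0.14, adjusted p = 0.00894, and 0.0519 at -0.56 without tube A array 1). It also lost its call without parabola 3 end array 2. CLE25, a peptide that signals dehydration from root to leaf, was the 1 called gene of 43 signalling peptides, with 3.09, 3.13 and 2.91 against 3.45, 3.67 and 3.66 (difference -0.55, SE 0.11, adjusted p = 0.00507). LCR68, a defensin-like gene, was the 1 called gene of 73 defensins and lipid transfer proteins (-0.48, adjusted p = 0.0324, and 0.168 at -0.37 without parabola 3 end array 1, with 4 such arrays in all). JRG21, a jasmonate-regulated oxygenase, had values of 3.93, 3.69 and 3.71 against 3.32, 2.97 and 3.33. They were separate, but the difference of 0.57 missed the threshold (adjusted p = 0.0849). JMT, the other measured member of the jasmonate list, had -0.10. OPCL1, the jasmonate synthesis gene given above, is not in that list and was called higher, by 1.19. ASPGB1, an asparaginase gene, had 6.60, 6.87 and 6.13 against 6.56, 6.10 and 6.85, so the groups lay over each other (difference 0.03, adjusted p = 0.972).

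In the cold list, STZ rose and the dehydrin LTI30 fell, 1 gene each of 8. LTI30 had 8.18, 8.31 and 8.02 at parabola 3 end and 8.53, 9.16 and 9.12 in tube A. The lowest tube A value lay just above the highest of the later tube, and the difference was -0.76 (SE 0.20, adjusted p = 0.0387). It lost its call without any of 5 arrays, with an adjusted p of up to 0.171 at -0.65. COR47 had a difference of -0.05, KIN2 one of -0.35 (adjusted p = 0.298) and COR15A one of -0.18. MYBC1, a negative regulator of freezing tolerance, had 4.76, 4.74 and 5.02 against 5.70, 5.63 and 5.43 and a difference of -0.75 (SE 0.14, adjusted p = 0.00304).

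Families outside these pathways gave at most 2 calls each, where 3.58% of all tested probe sets were called. AGL49, a MADS-box gene, was the 1 called gene of 67 AGAMOUS-like genes, with 4.08, 3.91 and 4.16 against 3.39, 2.64 and 3.24. Its difference of 0.96 (SE 0.20, adjusted p = 0.00859) was 0.73 (adjusted p = 0.0685) without tube A array 2. The carboxypeptidase-like genes scpl16 (-0.67, adjusted p = 0.0346) and scpl48 (-0.64, adjusted p = 0.020) fell, 2 of 32. Both lost their call without 1 of several arrays, at up to 0.189 (-0.51) for scpl16 and 0.124 (-0.50) for scpl48. The beta-glucosidase BGLU44 was the 1 called gene of 24 (-0.62, adjusted p = 0.0324, up to 0.130 at -0.49 without 1 of 5 arrays). No member passed among 15 glutathione transferases, 8 peroxidases, 16 SWEET sugar transporters, 14 nitrate and peptide transporters, 11 autophagy genes, 10 glutaredoxins and thioredoxins named so, 16 ubiquitin-conjugating enzymes, 8 response regulators, 6 lectins, 4 starvation genes and 2 clock genes. These and the 3 other lists without a call held 142 genes, of which 21 had an unadjusted p below 0.05 in limma. Of all 16722 tested probe sets, 2536 had an unadjusted p below 0.05, a share close to that of these lists. PRXCA, a peroxidase, had the largest difference among these, 1.10 (SE 0.33, adjusted p = 0.0692). GI, a clock gene, was at 4.83 and 4.80.

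Most plastid-encoded transcripts had a lower level at parabola 3 end than in tube A, but few passed the test. Of 63 measured genes of the plastid genome, 0 rose and 2 fell, 60 had a difference below 0, and the median was -0.39 with a range of -0.80 to 0.19, beside a median of 0.004 for all tested probe sets. Their mean was 9.80, 9.36 and 9.42 in the parabola 3 end arrays and 9.80, 9.94 and 10.02 in tube A. Parabola 3 end array 1 thus equalled the lowest tube A array, and 31 of the 63 genes were lower without overlap, against 8.97% of all tested probe sets. The called genes were ccsA, of cytochrome c assembly, with 7.86, 7.42 and 7.50 against 8.14, 8.36 and 8.46 (difference -0.73, SE 0.15, adjusted p = 0.00977), and ndhG, of the NDH complex (-0.77, SE 0.21, adjusted p = 0.0398). Without parabola 3 end array 2, ccsA had an adjusted p of 0.0616 at -0.65 and ndhG one of 0.19 at -0.62, and the ndhG call ended without 4 other arrays as well. The widest difference was that of ndhI, at -0.80 (SE 0.26, adjusted p = 0.097), followed among uncalled genes by ndhF at -0.73 (adjusted p = 0.0803) and the polymerase gene rpoB at -0.72 (adjusted p = 0.0892). Against tube B, 0 of the 63 were called and the median was -0.20. The list mean was 9.87, 9.58 and 9.78 in tube B. In level flight it was 9.34, 9.63 and 9.93, which covers the parabola 3 end range and the lowest tube A array. All 63 genes belong to 1 genome, and their number is not a number of independent observations.

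Nuclear genes of leaf photosynthesis were measured beside them, since the roots had been dissected from shoots. By limma, 0 of 10 were called and 1 had an unadjusted p below 0.05, 7 differences lay below 0 and the median was -0.13. The mean of the 10 genes was 3.25, 3.44 and 3.21 at parabola 3 end and 3.51, 3.55 and 3.32 in tube A, with overlap. The antenna genes LHB1B2, LHCB4.2 and LHCB4.3 had means of at most 2.30, below the median probe set. LHCB4.1, also an antenna gene, was above that median, at 4.32 at parabola 3 end and 4.56 in tube A. PSBW was at 4.77 and 5.04, lower at parabola 3 end without overlap of the arrays (difference -0.28, limma adjusted p = 0.399). The Rubisco activase gene RCA was at 4.55 and 4.50. PSAN had the widest difference (-0.70, adjusted p = 0.068). The part of leaf tissue in the plastid difference was not tested. Of 7 pollen and flower genes, whose tissue roots lack, 0 were called and 0 had an unadjusted p below 0.05, and their higher group means were at most 2.83.

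**Figure D4:**
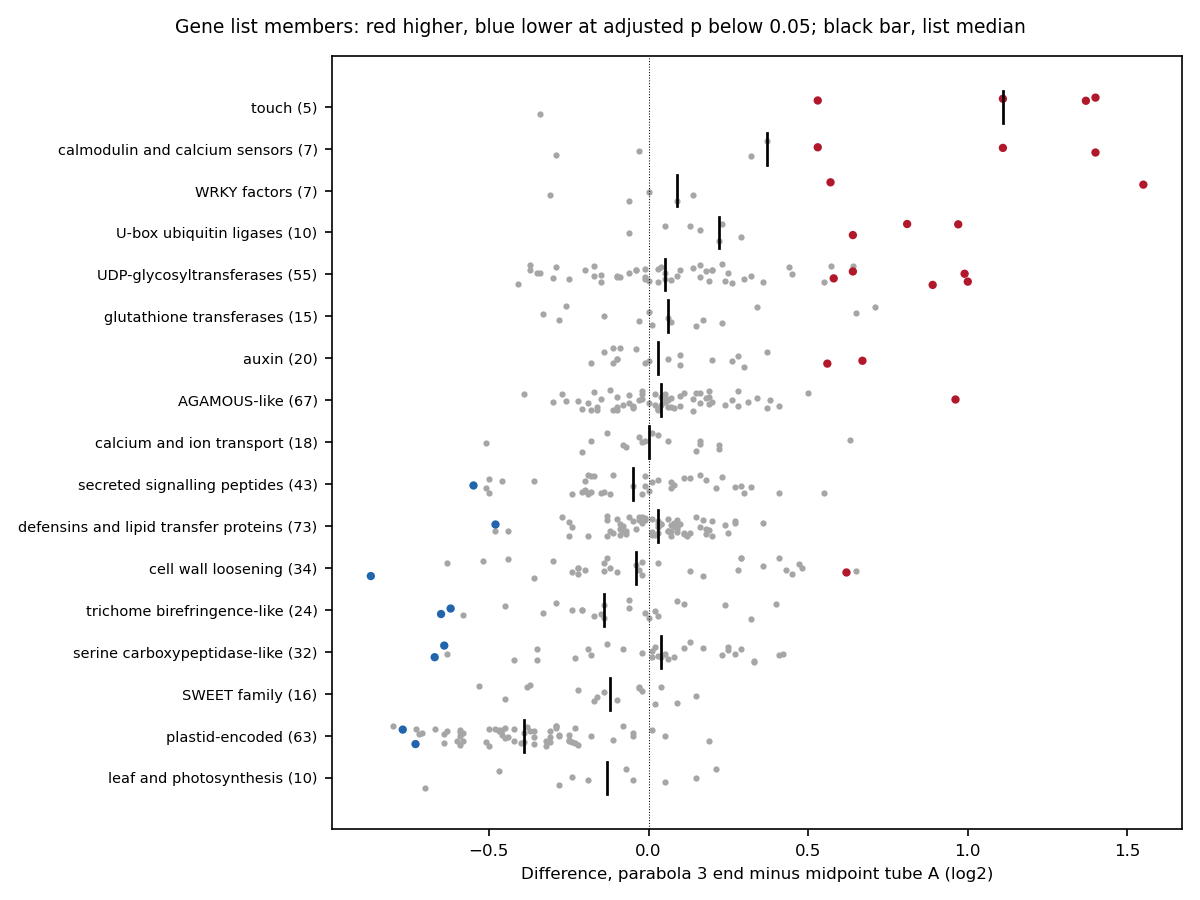
Differences between parabola 3 end and tube A (log2, horizontal) of the members of 17 gene lists, with the number measured in brackets. Red points are members called higher, blue points members called lower and grey points members not called, and the black bar is the list's median, which is 1.11 for touch genes, -0.39 for plastid-encoded genes and near 0 for most others.

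The same parabola 3 end arrays were set against midpoint tube B, fixed at the same moment as tube A. The comparisons share the parabola 3 end arrays, so their values are given side by side only. Against tube B, 26 probe sets were called (0.155%), 16 higher (0.0957%) and 10 lower (0.0598%), and 1508 had an unadjusted p below 0.05 against 2536 for tube A. Tubes A and B differed from each other at 238 probe sets (1.42%), 46 higher (0.275%) and 192 lower (1.15%) in tube A. AT5G62360 fell by nearly the same amount against either tube, with differences of -1.72 from tube A and -1.66 from tube B (adjusted p = 0.0064). The locus AT1G14200 was 1.32 higher than in tube A (adjusted p = 1.00e-04) and 1.19 higher than in tube B (adjusted p = 0.00207). ROF2 was 1.17 and 0.98 higher (adjusted p = 0.0369 against tube B), Fes1A 1.24 and 0.85 (adjusted p = 0.0369), and Hop3 0.62 and 0.90 (adjusted p = 0.0264). AT4G29780 was 1.82 and 1.05 higher (adjusted p = 0.0206), and FMO, a flavin-dependent monooxygenase, 0.79 and 0.57 (adjusted p = 0.0432). The count against tube B rests on few arrays, since it was 5 without tube B array 1 and 29 without tube B array 2.

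For other genes the 2 midpoint tubes gave different values. WRKY22 was 1.55 above tube A but 0.23 above tube B (adjusted p = 0.800), since tube B read 4.99, 4.88 and 4.48. GRX480 was 1.42 and 0.16 higher, UGT73B5 0.99 higher and -0.02, and PUB22 0.64 higher and -0.18. ATMAP65-6 had differences of -0.74 and -0.06, and SKU5 of -0.76 and -0.15. STZ lay between, at 1.37 and 0.58 (adjusted p = 0.221). AT2G43120 was above tube A, with 8.86, 9.31 and 8.88 against 8.27, 7.50 and 8.19 (difference 1.03, adjusted p = 0.0139, and 0.0946 at 0.78 without tube A array 2, its call also ending without parabola 3 end array 2). In tube B it read 9.64, 9.96 and 9.39, higher than at parabola 3 end, where the difference of -0.65 was not called (adjusted p = 0.348). AT1G50590 had the same order of groups, with differences of 0.55 from tube A (adjusted p = 0.233) and -1.0 from tube B (adjusted p = 0.0858). UGT76B1, a glycosyltransferase of immune regulators, was called against tube B alone, with -0.80 (adjusted p = 0.0491) beside 0.25 against tube A (adjusted p = 0.516), and the median of the 55 glycosyltransferases was 0.05 against tube A and -0.09 against tube B.

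**Figure D5:**
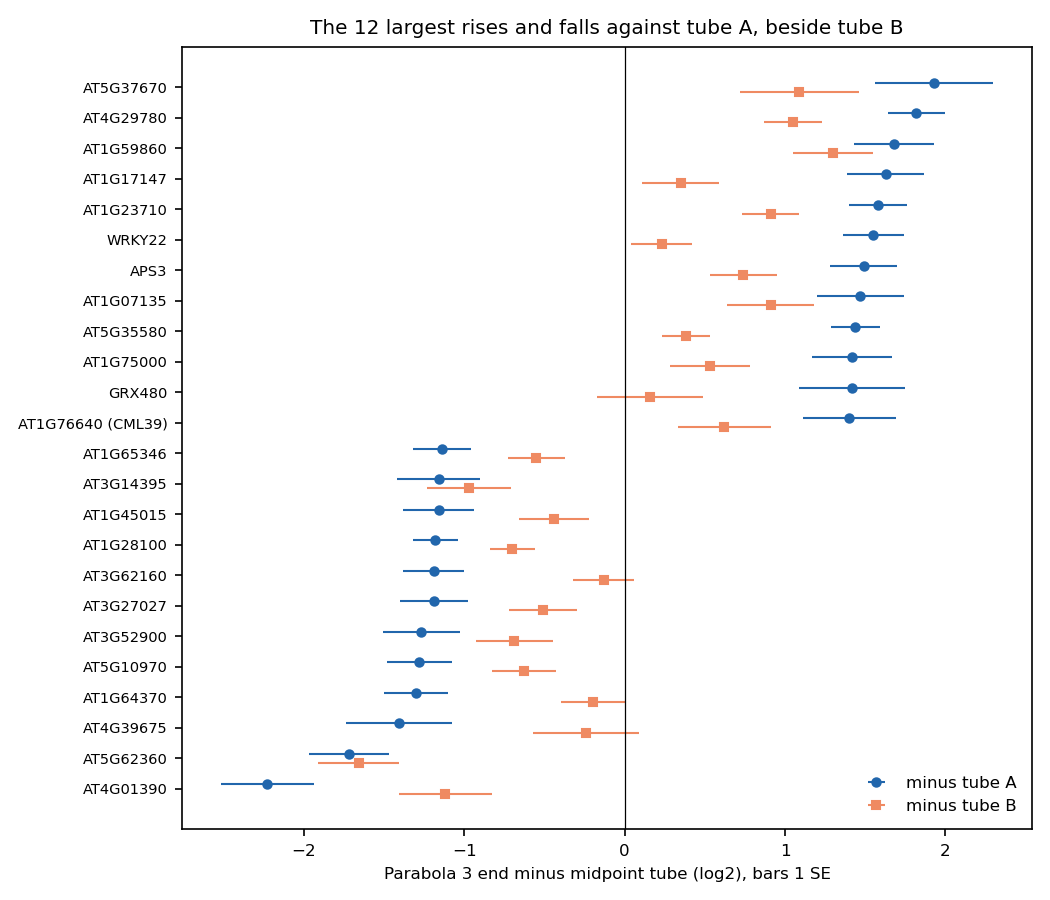
Differences (log2, horizontal) of parabola 3 end from midpoint tube A (circles) and from midpoint tube B (squares), with bars of 1 SE, for the 12 largest rises and the 12 largest falls against tube A. The genes were chosen on the circles; AT5G62360 (-1.72 and -1.66) keeps its size against tube B, while WRKY22 (1.55 and 0.23) and GRX480 (1.42 and 0.16) lie near 0 there.

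The levels in the other groups place these differences in the flight. STZ had means of 7.92 ± 0.04 in level flight, 7.27 ± 0.06 at parabola 1 start, 6.94 ± 0.35 in tube A, 7.74 ± 0.24 in tube B, 7.91 ± 0.24 at parabola 1 end, 8.31 ± 0.30 at parabola 3 end and 7.90 ± 0.07 at parabola 10 end (SD, n = 3). Tube A was thus the lowest group and parabola 3 end the highest, but parabola 3 end did not pass against level flight (difference 0.39, adjusted p = 0.369). WRKY22 was highest in level flight, at 5.54 ± 0.16, with 5.01 ± 0.27 at parabola 3 end (adjusted p = 0.287 between them) and 3.46 ± 0.41 in tube A. ROF2 was at 6.86 ± 0.30 in level flight and 7.77 ± 0.16 at parabola 3 end, and here parabola 3 end was higher than level flight too (0.91, adjusted p = 0.0276).

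AT4G29780 showed the same order, with 6.38 ± 0.11 in level flight, 5.44 ± 0.38 in tube A, 6.92 ± 0.26 at parabola 1 end and 7.26 ± 0.20 at parabola 3 end, 0.89 above level flight (adjusted p = 0.0235). AT5G62360 was at 4.51 ± 0.70 in level flight, 4.83 ± 0.10 at parabola 1 start and 4.86 ± 0.14 in tube A. It was lower in all 3 groups fixed at the end of a parabola, with 3.35 ± 0.29, 3.14 ± 0.29 and 2.92 ± 0.30 after 1, 3 and 10 parabolas. AT5G48430 was highest in level flight, at 6.24 ± 0.03, and 2.06 log2 units lower at parabola 3 end (difference -2.06, adjusted p = 4.13e-06). ATMAP65-6 was at 7.21 ± 0.03 and 7.44 ± 0.05 at parabola 1 start and in tube A and between 6.48 and 6.75 in the other 5 groups. Over all tested probe sets, parabola 3 end differed from level flight at 79 (0.472%), with 21 higher (0.126%) and 58 lower (0.347%), a comparison that shares the parabola 3 end arrays. Tube A differed from level flight at 864 of the 16722 probe sets, with 594 higher and 270 lower in level flight. It differed from parabola 1 start at 29, from parabola 1 end at 419 and from parabola 10 end at 938. Those comparisons share the tube A arrays. Calls against tube A in such numbers were thus not particular to parabola 3 end.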

How the data were processed

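Affymetrix AraGene 1.0 ST arrays were used, and the authors deposited RMA values on a log2 scale. The submitters' processing notes name TAIR10, RMA, oligo, limma and R 4.0.0. Of 38408 probe sets, 17481 were paired with a gene, 16722 with exactly 1 (16550 genes), and 16574 of these matched RefSeq (assembly TAIR10.1), which gave current symbols and synonyms. Probe sets with several genes (759) were fitted but not counted. Column medians lay between 2.92 and 3.04, and the number of arrays limits the precision.

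All named probe sets were fitted with limma 3.58.1 (lmFit, eBayes, two-sided, no filter) in R 4.3.3, on 21 arrays and 7 group means (14 residual degrees of freedom), with Benjamini-Hochberg adjustment per comparison and a threshold of 0.05. Summaries and plots were made in Python 3.11.15 with pandas 2.3.3 and matplotlib 3.10.9. The fit was tested on simulated data with independent noise and no effect of tube, so that test cannot speak to differences between tubes. The text names the 12 largest rises and falls among called genes whose groups do not overlap and whose higher mean exceeds the median probe set. It also names up to 4 called members of each list, smallest p first, a set of loci whether or not they pass, and genes chosen after their values had been seen. The last were Fes1A, Hop2, Hop3, SGT1A, DREB2C, MYBC1, APS3, OPCL1, SRC2, AT5G52050, TUB1, SP1L2, ATMAP65-6, KINESIN-13A, SKU5, COB, BAT1, GT72B1, AT1G14200, SUFE2, RCA and uncalled list members, among them those with the widest differences. SRS3, WNK9, MMP, SBT3.3, ATSBT5.2 and PORB were chosen in the same way. They count among the 100 genes looked at singly but are not described. FMO and UGT76B1 were taken from the calls against tube B. The comparison, the members of the lists and the tests were chosen with earlier results of these data known. List members were found through symbols and synonyms, so loci without a name are missing from the lists, and no list was tested as a set. Measured members are those matched in this way. They were 5 for 26 names in the touch list, 8 for 18 in cold, 5 for 29 in hypoxia, 4 for 32 in starvation, 2 for 28 in jasmonate and 2 for 26 in clock. Lists drawn by a naming rule, as for WRKY genes, may also hold only a part of the family.

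The count was repeated with only the 6 arrays, with all or only the single-gene probe sets, with the brighter part of the probe sets, with cyclic loess, array weights, a robust variance trend, a block of replicate numbers, a random effect of tube, and without each array; averaging both midpoint tubes was added after the data had been seen. The tube correlation of 0.221 was estimated from tubes A and B alone.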

Additional observations from a re-analysis of the deposited data

Results flagged for a closer look

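Tubes A and B, fixed at the same moment, differed from each other in 28 of the 100 genes looked at singly (limma adjusted p below 0.05), 22 lower and 6 higher in tube A, so that for these the difference of parabola 3 end from the midpoint depended on the tube. Of all tested probe sets, 238 (1.42%) differed between the tubes. Most of the 100 genes, 82 of them called, were chosen on their difference from tube A. The count of 28 and its direction therefore follow in part from that choice. All values here are tube A minus tube B on the log2 scale. The widest were AT2G43120 at -1.68 (adjusted p = 0.00179), AT1G50590 at -1.55, WRKY22 at -1.32 (adjusted p = 0.00181), AT1G17147 at -1.28 and JRG21 at -1.19. AT1G50590 and JRG21 were not called between parabola 3 end and tube A. AT5G52050 had -1.16, AT5G35580 had -1.06, SRC2 had -0.98, STZ had -0.79 and AT4G29780 had -0.77. All 5 called glycosyltransferases were among the 28, with -1.0 for UGT73B5, -0.92 for GT72B1, -0.89 for UGT73B4, -0.75 for UGT73B2 and -0.54 for UGT87A2. So were the U-box genes PUB22 (-0.82), PUB24 (-0.76) and PUB23 (-0.50), and WRKY6 (-0.53). Metabolic genes lower in tube A were SUFE2 (-0.82), AlaAT1 (-0.52) and ALDH2C4 (-0.43). The 6 genes higher in tube A were AT1G64370 (1.10), AT3G62160 (1.06), TBL33 (0.74), ATMAP65-6 (0.68), BAT1 (0.65) and SKU5 (0.61). What distinguished the tubes beyond the crew member who operated them was not tested.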

How the results depend on the processing

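The count of 599 was 157 with only the 6 arrays, 44 (35 higher, 9 lower) with a random effect of tube, 189 with both midpoint tubes averaged, an alternative chosen after seeing the data, and 243 to 594 when 1 array was left out. It lay between 431 and 770 under the other settings. Of the genes in the lists, 36 were called, against 10, 3 and 13 under those 3 settings and 16 to 42 with 1 array left out. The count of 26 against tube B ranged from 5 to 29. The median of the glycosyltransferases turned from 0.05 to -0.02 with both tubes averaged, that of the touch genes stayed between 0.81 and 1.29 and that of the plastid-encoded genes between -0.55 and -0.29 under every setting run. Of 82 called genes looked at singly, 45 kept their call whichever of the 6 arrays was left out, 19 kept it with the tube block and 45 with both tubes averaged, and none changed sign. The replicate number as a block gave 550 calls. Samples with the same number did not deviate together (correlations of 0.048, -0.021 and 0.023), so the numbers do not pair the arrays. The tube block assumes 1 correlation for all probe sets, estimated from 1 pair of tubes, and genes that pass it are not shown to exceed differences between tubes. Motifs in promoters were not analysed here.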
